A study of Mus musculus with 6 samples.

Results

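Tuft cells are a rare chemosensory lineage of the intestinal epithelium, marked by an apical tuft of stiff microvilli. They depend on the transcription factor Pou2f3, pass luminal signals on through the cation channel Trpm5, and answer with the cytokine Il25 and with prostaglandins and cysteinyl leukotrienes. In the gut, tuft cells are best known for starting type 2 immune responses to worms and protists, and they have been tied to epithelial repair. The 10 tuft cell genes described here were Pou2f3, Gfi1b, Trpm5, Dclk1, Avil, Sh2d6, Il25, Ptgs1, Alox5 and Ltc4s, each found by its symbol as 1 row among the 55487 genes of the count table.

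The RNA came from intestinal epithelial cells (IECs) of the colon, and every mouse had drunk dextran sodium sulphate (DSS), an agent that damages the colon lining and brings on colitis. The control group, named Nsd2f/f here and WT in the sample titles, had 3 libraries from mice whose Nsd2 alleles carry loxP sites and stay in place. The Nsd2Vil-KO group (NSD2-FF-VILCRE in the labels) had 3 libraries from mice in which Cre under the Villin promoter removes Nsd2, a histone H3K36 methyltransferase, throughout the intestinal epithelium, of which tuft cells are a part. According to the methods, the mice were on a C57BL/6J background, were 2 months old and drank 2% DSS for 5 days; the day on which these cells were taken, and whether a library is 1 mouse or a pool, is not given in the sources used here, so p-values measure the spread between libraries. The IECs were shaken off in EDTA and strained, without a sort for tuft cells. In such bulk RNA a change in tuft cell number and a change in RNA per tuft cell cannot be told apart.

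The promoters of the 2 tuft cell genes that passed the test described below, Avil and Sh2d6, are shown because Avil had the largest change and Sh2d6 the next. Each window runs from 250 bases before to 50 bases after the start site, 5′ to 3′ on the gene's strand, from RefSeq on GRCm38.p6. The Avil window is chr10:127000459-127000758 on the plus strand and the Sh2d6 window is chr6:72519987-72520286 on the minus strand. The Sh2d6 window lies wholly inside the gene as annotated in GENCODE vM21, whose 5′ end is at 72521707. The sequence before that end was not read. Capitals mark ATGCAAA on either strand, the first 7 letters of the octamer ATGCAAAT that POU factors such as Pou2f3 recognise.
Avil: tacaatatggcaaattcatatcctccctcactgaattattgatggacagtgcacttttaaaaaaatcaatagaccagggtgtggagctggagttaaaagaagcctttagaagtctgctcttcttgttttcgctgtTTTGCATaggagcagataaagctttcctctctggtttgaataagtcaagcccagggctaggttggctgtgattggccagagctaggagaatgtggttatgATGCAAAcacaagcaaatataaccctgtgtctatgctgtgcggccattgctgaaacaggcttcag
Sh2d6: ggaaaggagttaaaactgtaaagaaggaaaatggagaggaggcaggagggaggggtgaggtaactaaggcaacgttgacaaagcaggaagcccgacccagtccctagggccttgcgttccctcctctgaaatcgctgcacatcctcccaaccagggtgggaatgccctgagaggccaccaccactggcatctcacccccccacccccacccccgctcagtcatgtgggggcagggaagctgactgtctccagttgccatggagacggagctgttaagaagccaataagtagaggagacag
The Avil window held 2 copies of the 7-base motif, at -115 in reverse orientation (TTTGCAT) and at -15 in forward orientation, counted from the start site to the copy's first base in the window. Of all 32817 RefSeq promoter windows of this length, 4.63% held at least 1 copy on either strand and 0.293% held 2 or more. The Sh2d6 window held none, nor did any of the other windows of the 8 members with a RefSeq promoter (9 windows in all). The full octamer (ATTTGCAT in reverse) stood in 1.74% of all windows and in 0 of the 9 member windows, and every full octamer also counts as a 7-base copy. These matches are letters in a window and no measure of binding.

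The members were expressed at low levels. The libraries held between 15439123 and 20350539 counted reads, at which 3 counts correspond to 0.146 to 0.242 CPM (counts per 1000000 reads, with library sizes scaled by TMM factors). All values below are in this CPM unless stated otherwise. Per kilobase of exon, the order of mean level over the 6 libraries ran from Avil (2.79 CPM per kb) and Sh2d6 (1.87) through Trpm5 (0.374), Alox5 (0.359), Ptgs1 (0.292), Dclk1 (0.191), Pou2f3 (0.162) and Ltc4s (0.147) to Gfi1b (0.0620) and Il25 (0.0305). Every member overlapped with the next one in this order in its range over libraries. On the same per-kilobase scale the pan-epithelial gene Epcam stood at 1031 CPM per kb and the enteroendocrine hormone-granule gene Chga at 5.53.

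The libraries labelled Nsd2f/f replicate 3 and Nsd2Vil-KO replicate 2 stood apart from the other 4, with 4296 and 3684 counts of Xist against 1 to 5, and with mean rank correlations to the others of 0.937 and 0.927 against 0.959 to 0.964. Mitochondrial genes took 19.6% of the counts in Nsd2f/f replicate 3 and 5.51% to 9.13% in the other 5. Nsd2 itself was 47.8, 51.1 and 24.5 CPM in the Nsd2f/f libraries and 24.1, 10.4 and 20.8 in the Nsd2Vil-KO libraries, so Nsd2f/f replicate 3 lay just above the highest Nsd2Vil-KO library (log2 fold change -1.16, SE 0.39, p = 0.0217 by edgeR's quasi-likelihood test, adjusted p = 0.992, exact permutation p = 0.1). The epithelial label matched its markers: the summed level of 7 pan-epithelial genes was 11341 to 17310 CPM in Nsd2f/f and 12697 to 15662 in Nsd2Vil-KO libraries. The fold change of each tested member is therefore also given for the 4 libraries without Xist.

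Of the 10 tuft cell genes, 7 had enough counts for the test, and 2 of these, Avil and Sh2d6, rose in the Nsd2Vil-KO libraries while none fell. The criterion was a fold change above 1.2 with an unadjusted p below 0.05 by edgeR's quasi-likelihood test. The limits were those of the study's results, whose own test came from the Ballgown package. Of the 14650 genes tested, 3.29% passed the criterion in either direction and 1.65% as higher. The other members tested, Pou2f3, Trpm5, Dclk1, Alox5 and Ptgs1, did not pass. In all, 5 of the 7 tested members had a log2 fold change above 0, against 50.1% of all genes, and the members' median was 0.82 against 0.00 over all genes. Since a gene high in either group passes the filter on low counts more easily, these are descriptions. At an adjusted p below 0.05, edgeR called 0 of all genes, whose smallest adjusted p was 0.992, while 482 had an unadjusted p below 0.05 and DESeq2 called 4 genes at an adjusted p below 0.05.

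**Figure D1:**
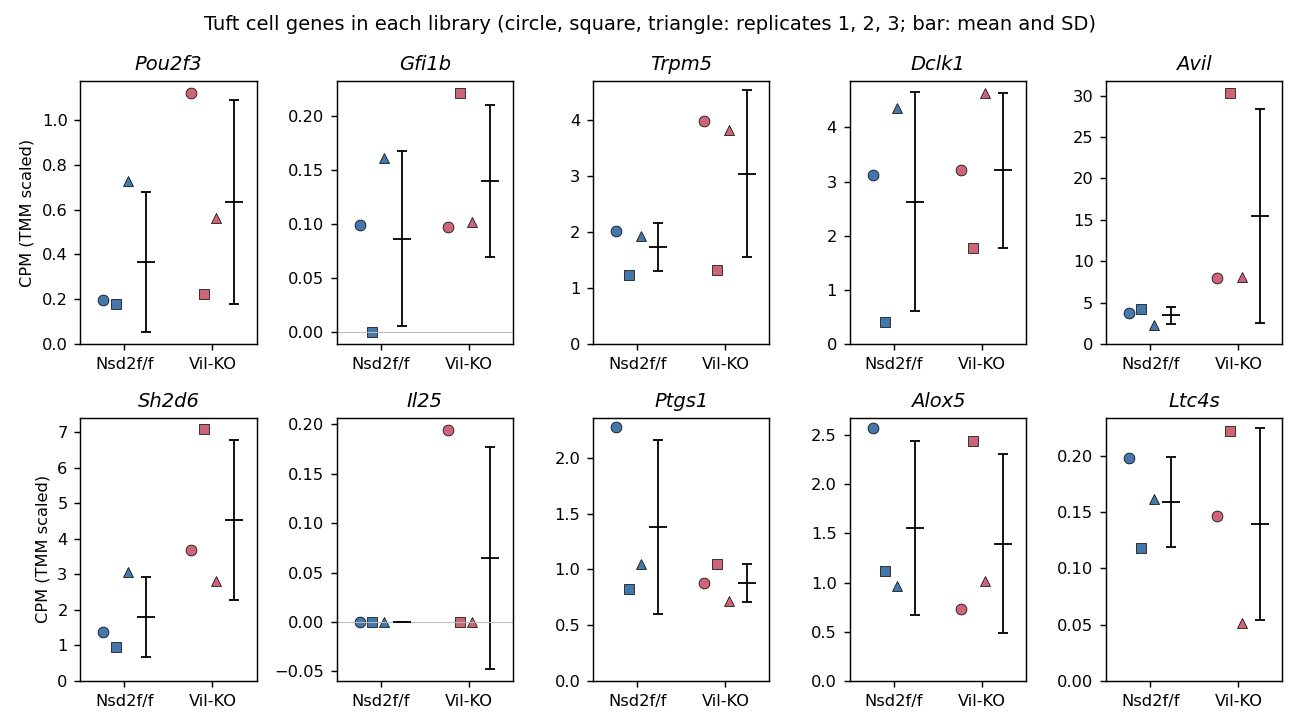
CPM (y axis, TMM scaled, a separate scale for each gene) of the 10 tuft cell genes in the 3 Nsd2f/f (blue) and 3 Nsd2Vil-KO libraries (red). Circles, squares and triangles are replicates 1, 2 and 3, and the black bar is the mean with its SD (n = 3). Avil is the one gene with every Nsd2Vil-KO library above every Nsd2f/f library, with replicate 2 at 30.4 CPM.

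Pou2f3 encodes the POU-domain factor without which tuft cells do not form. It lies at chr9:43123939-43210369 on the minus strand (GRCm38, GENCODE vM21). It was counted 4, 3 and 9 times in the Nsd2f/f libraries (0.198, 0.177 and 0.726 CPM) and 23, 4 and 11 times in the Nsd2Vil-KO libraries (1.12, 0.222 and 0.561 CPM). The groups overlapped: Nsd2Vil-KO replicate 1 was highest, Nsd2f/f replicate 3 next, and Nsd2Vil-KO replicate 2 was close to the low Nsd2f/f libraries. Its log2 fold change was 0.93 (SE 0.81, p = 0.287 by edgeR, adjusted p = 0.992, exact permutation p = 0.5). In the 4 libraries without Xist it passed the criterion at 2.14 (SE 0.77, adjusted p = 0.414 by edgeR), a size that rests on 2 libraries a group. Without Nsd2Vil-KO replicate 1 it was 0.23.

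Gfi1b, a zinc-finger repressor found in tuft cells as well as in red cell and platelet precursors, gave 2, 0 and 2 counts in the Nsd2f/f libraries and 2, 4 and 2 in the Nsd2Vil-KO libraries. It lies at chr2:28609450-28621982 on the minus strand and did not reach the filter for the test. Its summed counts of 4 and 8 had exact 95% Poisson intervals of 1.09 to 10.2 and 3.45 to 15.8, which cover counting error only, so a difference was not detectable at this depth.

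Trpm5, at chr7:143069153-143094642 on the minus strand, encodes the calcium-activated channel that depolarises tuft and taste cells. Its levels were 2.03, 1.24 and 1.94 CPM in Nsd2f/f (41, 21 and 24 counts) and 3.99, 1.33 and 3.83 CPM in Nsd2Vil-KO libraries (82, 24 and 75 counts). Nsd2Vil-KO replicates 1 and 3 lay above every Nsd2f/f library and replicate 2 fell among them. Its log2 fold change was 0.82 (SE 0.52, p = 0.158 by edgeR, adjusted p = 0.992, exact permutation p = 0.3). It passed the criterion without Nsd2Vil-KO replicate 2 (1.17), and in the 4 libraries without Xist (1.24, SE 0.37, adjusted p = 0.374 by edgeR). Of the Trpm5 exons, 220 bases (3.44%) overlap Tssc4 on the other strand, and Tssc4 itself had a log2 fold change of -0.07 (p = 0.763 by edgeR, exact permutation p = 0.7).

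Dclk1, a microtubule-associated kinase and the classic histological tuft marker of the mouse gut, varied widely within the control group. It lies at chr3:55242364-55539068 on the plus strand. Nsd2f/f libraries gave 3.12, 0.413 and 4.36 CPM (63, 7 and 54 counts) and Nsd2Vil-KO libraries 3.21, 1.77 and 4.64 CPM (66, 32 and 91 counts). Nsd2f/f replicate 2 alone stood below all others, and the remaining values of both groups were interleaved. The log2 fold change was 0.31 (SE 0.74, p = 0.684 by edgeR, adjusted p = 0.996, exact permutation p = 0.6). It depended on the libraries used in both directions. It turned to -0.20 without Nsd2f/f replicate 2 and to -0.046 without Nsd2Vil-KO replicate 3, was 0.83 without Nsd2f/f replicate 3, and was 1.08 (SE 0.70, adjusted p = 0.598 by edgeR) in the 4 libraries without Xist, where it did not pass.

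Avil encodes advillin, an actin-bundling protein related to villin that is found in the microvilli of tuft cells and in sensory neurons. It lies at chr10:127000709-127020994 on the plus strand. It was counted 77, 73 and 29 times in the Nsd2f/f libraries and 164, 548 and 159 times in the Nsd2Vil-KO libraries, or 3.81, 4.31 and 2.34 against 7.98, 30.4 and 8.11 CPM. Every Nsd2Vil-KO library lay above every Nsd2f/f library, and Nsd2Vil-KO replicate 2 lay far above the other two. The means were 3.49 ± 1.02 and 15.5 ± 12.9 CPM (SD, n = 3 per group).

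For Avil the log2 fold change was 2.13 (SE 0.61, p = 0.009995 by edgeR, adjusted p = 0.992), and the exact two-sided permutation test gave p = 0.1, the smallest that 3 against 3 libraries allow. The separation without overlap was shared with 9.92% of all genes in either direction and 5.21% in the same direction. Without Nsd2Vil-KO replicate 2 the log2 fold change was 1.19, and in the 4 libraries without Xist it was 1.00 (SE 0.24, adjusted p = 0.341 by edgeR). Avil passed the criterion in each of the 20 alternative analyses that were run.

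Because Avil is also a gene of sensory neurons and shares exon sequence with a neighbour, those signals were read beside it. The 5 enteric neuron and glia markers summed to 0.885 to 1.29 CPM in Nsd2f/f and 0.222 to 0.816 CPM in Nsd2Vil-KO libraries, the lowest sum lying near the floor of 3 counts, and 1 of the 5 was tested and did not pass. The part of neurons in the Avil level was not tested. Tsfm, on the other strand, overlaps 165 bases (4.86%) of the Avil exons. Its levels were 29.9, 29.3 and 40.3 CPM in Nsd2f/f and 26.6, 21.8 and 35.2 CPM in Nsd2Vil-KO libraries (log2 fold change -0.25, p = 0.338 by edgeR, exact permutation p = 0.4), lowest in the library where Avil was highest. The strand setting of the counting is not given in the sources used here, so reads in the shared bases cannot be assigned to either gene.

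Sh2d6 encodes an SH2-domain adaptor used as a tuft cell marker in gut epithelium, at chr6:72513641-72521707 on the minus strand. It gave 1.39, 0.944 and 3.07 CPM in Nsd2f/f (28, 16 and 38 counts) and 3.70, 7.09 and 2.81 CPM in Nsd2Vil-KO libraries (76, 128 and 55 counts). As for Avil, Nsd2Vil-KO replicate 2 was highest, but the groups overlapped, since Nsd2f/f replicate 3 lay above Nsd2Vil-KO replicate 3. The means were 1.80 ± 1.12 and 4.53 ± 2.26 CPM (SD, n = 3 per group). Its log2 fold change was 1.37 (SE 0.58, p = 0.0489 by edgeR, adjusted p = 0.992, exact permutation p = 0.2). In the 4 libraries without Xist it was 1.47 (SE 0.41, adjusted p = 0.365 by edgeR) and passed the criterion. The call was lost without Nsd2f/f replicate 1 (1.21) or 2 (1.06) and without Nsd2Vil-KO replicate 1 (1.49) or 2 (0.91).

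**Figure D2:**
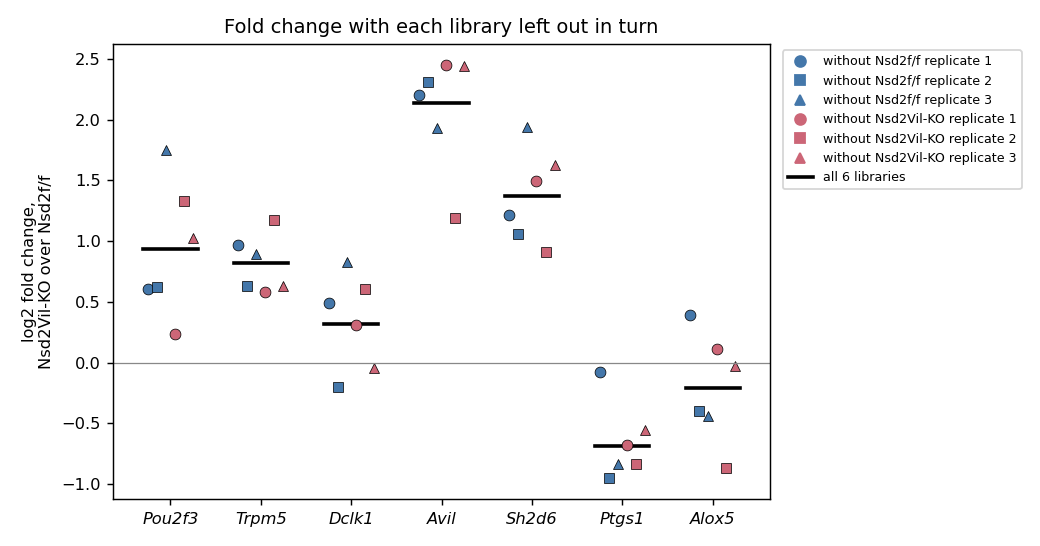
Log2 fold change (y axis, Nsd2Vil-KO over Nsd2f/f) of the 7 members tested, with all 6 libraries (black line) and after each library in turn was dropped (blue, an Nsd2f/f library; red, an Nsd2Vil-KO library; circle, square and triangle, replicates 1, 2 and 3). Avil stays between 1.19 and 2.45, and Dclk1 and Alox5 cross 0.

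Il25, the cytokine by which tuft cells call on group 2 innate lymphoid cells, was at or near the detection floor. It lies at chr14:54932695-54935837 on the plus strand. It had 0 counts in each Nsd2f/f library and 4, 0 and 0 counts in the Nsd2Vil-KO libraries, or 0.195 CPM in replicate 1. That library also held the most Pou2f3 and Trpm5. The 4 counts had an exact 95% Poisson interval of 1.09 to 10.2, against a floor of 3 counts per library, so the genotypes could not be told apart for Il25.

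Neither of the tested enzymes of eicosanoid synthesis passed the criterion. Ptgs1, the constitutive cyclooxygenase that starts prostaglandin synthesis, lies at chr2:36230426-36252272 on the plus strand. It gave 2.28, 0.826 and 1.05 CPM in Nsd2f/f and 0.876, 1.05 and 0.714 CPM in Nsd2Vil-KO libraries. Only Nsd2f/f replicate 1 stood out, and the other values lay close together. Its log2 fold change was -0.68 (SE 0.53, p = 0.234 by edgeR, adjusted p = 0.992, exact permutation p = 0.5) and -0.078 without Nsd2f/f replicate 1. In the 4 libraries without Xist it was -0.99 (SE 0.61, adjusted p = 0.571 by edgeR) and did not pass.

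Alox5, the 5-lipoxygenase that starts leukotriene synthesis, lies at chr6:116410077-116461178 on the minus strand. It gave 2.57, 1.12 and 0.968 CPM in Nsd2f/f and 0.730, 2.44 and 1.02 CPM in Nsd2Vil-KO libraries. Nsd2f/f replicate 1 and Nsd2Vil-KO replicate 2 were the high libraries, so each group held a high value. The log2 fold change was -0.21 (SE 0.62, p = 0.748 by edgeR, adjusted p = 0.996, exact permutation p = 0.6). It turned to 0.39 without Nsd2f/f replicate 1 and to 0.11 without Nsd2Vil-KO replicate 1, but was -0.87 without Nsd2Vil-KO replicate 2, -0.80 with limma-voom and -1.10 (SE 0.56, adjusted p = 0.506 by edgeR) in the 4 libraries without Xist, and it passed in none of these. Ltc4s, the leukotriene C4 synthase, at chr11:50236461-50238616 on the minus strand, had 4, 2 and 2 counts in Nsd2f/f and 3, 4 and 1 counts in Nsd2Vil-KO libraries. It was not tested, and 26.4% of its exon bases overlap the antisense gene Gm26542.

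Both Ptgs1 and Alox5 are also made by leukocytes, mast cells among them, and Ptgs1 by platelets. Nsd2f/f replicate 1, where both were highest, held the highest summed level of 8 macrophage and monocyte markers (439 CPM, against 108 to 274 in the other 5 libraries) and of 6 stromal markers (272 CPM, against 11.9 to 75.2). Of the stromal markers, 1 of 6 passed, the endothelial gene Pecam1, which fell (log2 fold change -1.33, SE 0.55, adjusted p = 0.992 by edgeR). Of the macrophage and monocyte markers, 8 of 8 were tested and 0 passed the criterion, with ranges of 108 to 439 CPM in Nsd2f/f and 172 to 274 CPM in Nsd2Vil-KO libraries. The summed level of 6 neutrophil markers was highest in the 2 libraries with high Alox5, at 998 CPM in Nsd2Vil-KO replicate 2 and 663 CPM in Nsd2f/f replicate 1 against 10.1 to 103 CPM elsewhere, and 0 of 6 passed. The 5 platelet markers summed to 3.39 to 4.50 CPM in Nsd2f/f and 3.89 to 11.4 CPM in Nsd2Vil-KO libraries, with Gp1bb at 0 in all. The 10 mast cell and basophil markers summed to 62.1 to 81.2 CPM in Nsd2f/f and 33.2 to 73.2 CPM in Nsd2Vil-KO libraries, and 0 of the 5 tested passed. Log2 fold changes were below 0 for 5 of 5 mast cell and basophil, 7 of 8 macrophage and monocyte and 4 of 6 neutrophil markers tested. The same held for 6 of 6 stromal and 1 of 2 platelet markers tested, and for 49.9% of all genes. The part of these cells in the Ptgs1 and Alox5 levels was not tested.

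Summed over the 10 genes, the level was 15.7, 9.15 and 14.8 CPM in Nsd2f/f and 22.1, 44.7 and 21.8 CPM in Nsd2Vil-KO libraries. All Nsd2Vil-KO sums lay above all Nsd2f/f sums, and Avil alone made up 36.2% to 67.9% of the members' counts in the former and 15.8% to 47.1% in the latter. Without Avil the sums were 11.9, 4.84 and 12.4 against 14.1, 14.3 and 13.7 CPM, still apart but by a small margin. This separation held only with the TMM factors. Scaled by total counts alone, Nsd2f/f replicate 1 lay above Nsd2Vil-KO replicate 2 in the sum without Avil. Taken singly, 5.21% of all genes had every Nsd2Vil-KO library above every Nsd2f/f library. Without Avil and Sh2d6, left out after their values were seen, the sums were 10.5, 3.89 and 9.36 against 10.4, 7.26 and 10.9 CPM, and the groups overlapped. Nsd2f/f replicate 2 was the low library in each sum.

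**Figure D3:**
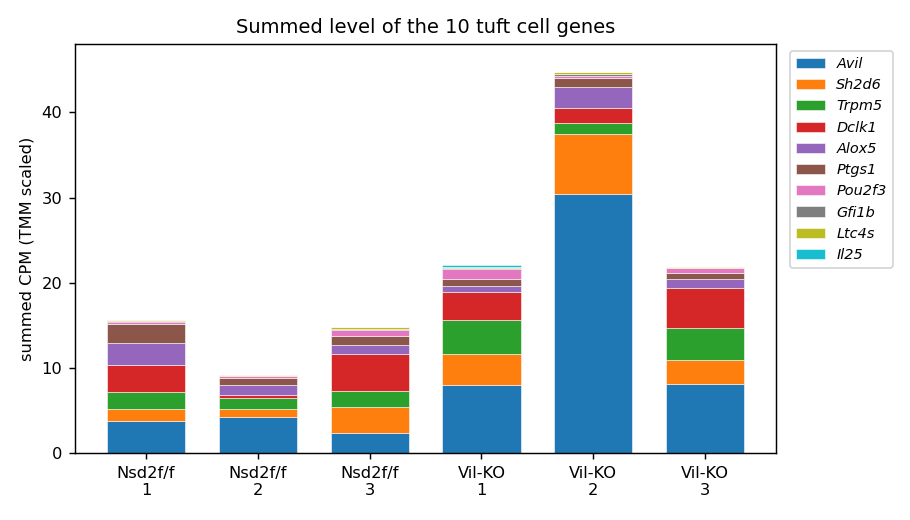
Summed CPM (y axis, TMM scaled, from 0) of the 10 tuft cell genes in each library (x axis), stacked by gene. The bars reach 9.15 to 15.7 CPM in Nsd2f/f and 21.8 to 44.7 CPM in Nsd2Vil-KO libraries, and the Avil share is largest in Nsd2Vil-KO replicate 2 at 67.9%.

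Members that mark the same cell did not rank the Nsd2Vil-KO libraries alike. Avil and Sh2d6 were highest in replicate 2, whereas Pou2f3, Trpm5 and Dclk1 were lowest of the 3 there, at 0.222, 1.33 and 1.77 CPM. In that same library the 7 stem and progenitor markers summed to 253 CPM, against 782 and 969 CPM in the other Nsd2Vil-KO libraries, and Nsd2f/f replicate 3, the other library with Xist, had 252 CPM against 768 and 800 CPM. The part of this difference in the tuft cell genes was not tested. Restricted to the 4 libraries without Xist, 4 of the 7 members tested (Trpm5, Pou2f3, Avil and Sh2d6) passed the criterion, all higher in Nsd2Vil-KO, beside 11.0% of the 15030 genes tested there. With limma-voom and quality weights on all 6 libraries, 5 passed, beside 9.83% of all genes tested. Their log2 fold changes were 1.25 for Trpm5, 1.74 for Pou2f3, 1.74 for Dclk1, 1.08 for Avil and 1.45 for Sh2d6. Quality weights count more variable libraries for less, and this fit shares its libraries with the one without Xist. The results of these fits are therefore not separate evidence.

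Another 39 genes known from tuft cells were read in 3 lists, of which 27 were tested. In these, 11 had a log2 fold change above 0 and 16 below, with a median of -0.11, and 1 passed (3.70%, near the 3.29% of all genes). That gene was Sh2d7, an SH2-domain relative of Sh2d6. Its levels were 0.742, 0.118 and 0.807 CPM in Nsd2f/f and 1.12, 2.55 and 2.09 CPM in Nsd2Vil-KO libraries. The groups did not overlap, and replicate 2 was again highest (log2 fold change 1.79, SE 0.65, p = 0.0281 by edgeR, adjusted p = 0.992, exact permutation p = 0.1). Of the 27 genes, 3 did not overlap, Sh2d7 and Vav1 as higher and Ptpn6 as lower, beside 9.92% of all genes. The value of Sh2d7 in Nsd2f/f replicate 2 was 2 counts, under the floor of 3 counts. Sh2d7 passed in 15 of the 19 alternative analyses that tested it, with 1.80 in the 4 libraries without Xist. With a library left out in turn it kept its call in 3 of 6 fits (1.31 to 2.15).

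**Figure D4:**
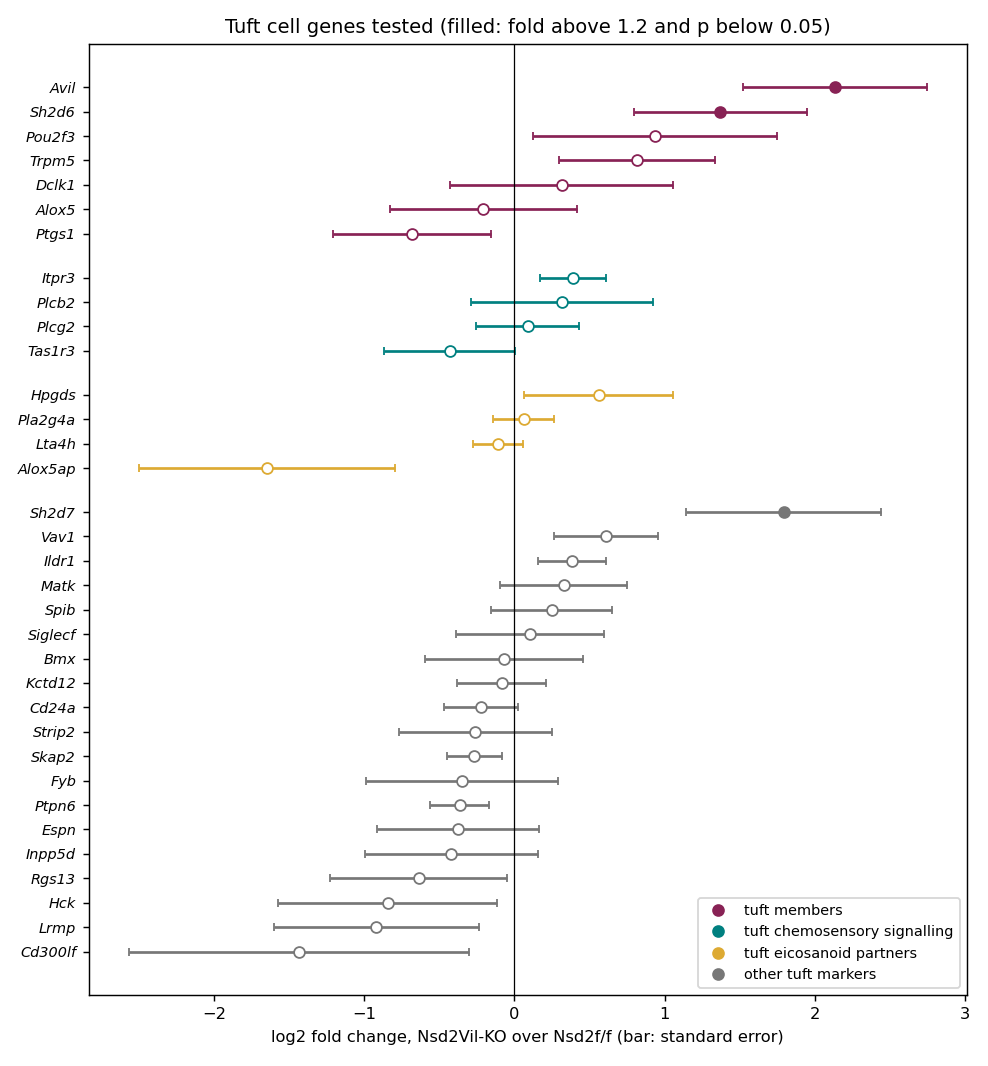
Log2 fold change (x axis, Nsd2Vil-KO over Nsd2f/f, bar: standard error) of the 7 members tested and of the 27 further tuft cell genes tested, grouped by list. Filled points, Avil, Sh2d6 and Sh2d7, passed the criterion, and the other points scatter on both sides of 0.

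The chemosensory signalling genes upstream of Trpm5 had 4 of 10 tested, of which 3 had a log2 fold change above 0 and 0 passed. Itpr3, the inositol trisphosphate receptor that releases calcium ahead of Trpm5, was 217, 261 and 199 CPM in Nsd2f/f and 296, 242 and 349 CPM in Nsd2Vil-KO libraries (log2 fold change 0.39, p = 0.119 by edgeR, adjusted p = 0.992, exact permutation p = 0.2). At these levels it exceeds Trpm5 by far, and it is made by many epithelial cells. Plcg2, a phospholipase C, had a log2 fold change of 0.09 (SE 0.34). The eicosanoid partners had 4 of 4 tested and 0 passed: Lta4h, the leukotriene A4 hydrolase, had a log2 fold change of -0.11 (SE 0.17) and Pla2g4a, the phospholipase that frees arachidonic acid, 0.06 (SE 0.20). Of the 25 other tuft markers, 19 were tested, 6 with a log2 fold change above 0 and 13 below. Alox5ap, the 5-lipoxygenase-activating protein, chosen here after its values were seen, was 10.8, 2.66 and 0.968 CPM in Nsd2f/f and 1.80, 2.11 and 0.816 CPM in Nsd2Vil-KO libraries, with the same high library as Ptgs1 (log2 fold change -1.65, SE 0.85, p = 0.0939 by edgeR, exact permutation p = 0.4).

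The type 2 circuit that Il25 feeds was read from 12 genes, of which 9 were tested, 7 with a log2 fold change above 0, and 0 passed. Retnlb, a goblet cell product induced by type 2 cytokines, was 471, 221 and 89.5 CPM in Nsd2f/f and 322, 861 and 86.8 CPM in Nsd2Vil-KO libraries (log2 fold change 0.70, SE 0.85, p = 0.438 by edgeR, exact permutation p = 0.8). Il13ra1, a receptor chain for Il13, had a log2 fold change of 0.00 (SE 0.21). The 3 type 2 cytokines of the list were too low for the test: Il13 had 2 counts and Il5 had 1 count, all in Nsd2f/f replicate 1, and Il4 had 3, 1 and 5 counts in Nsd2f/f and 7, 0 and 2 counts in Nsd2Vil-KO libraries. Il33, an epithelial and stromal alarmin, was 3.41, 2.60 and 0.403 CPM in Nsd2f/f and 4.97, 1.05 and 1.38 CPM in Nsd2Vil-KO libraries (log2 fold change 0.17, SE 0.81). These 4 genes are named after their values were seen.

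For the other secretory lineages of the colon epithelium, most markers had lower values in the Nsd2Vil-KO libraries. All 8 goblet cell markers tested had a log2 fold change below 0, as did 49.9% of all genes, and 1 of the 8 passed as lower beside 1.65% of all genes. This was Clca1, a secreted mucus protease (log2 fold change -1.64, SE 0.62, p = 0.0317 by edgeR, exact permutation p = 0.1). The sum of the 8 was 14161 to 16431 CPM in Nsd2f/f and 9891 to 11116 CPM in Nsd2Vil-KO libraries. Of 8 enteroendocrine markers tested, 2 had a log2 fold change above 0 and 0 passed, with sums of 114 to 171 and 101 to 110 CPM. Of the markers tested for colonocytes (7), T cells (7), B and plasma cells (5) and eosinophils (1, with Prg2 at 0 in every library), 0 passed. The difference between these lists and the tuft cell genes was not tested.

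The genes whose log2(CPM + 1) over the 6 libraries was most like the mean z-score of the 7 members tested were Abhd17b (Pearson r 0.963), Ttc5 (0.948), Ahr (0.919), Dpy19l4 (0.912), Fam83f (0.909), Nr3c1 (0.903), Dip2b (0.903) and Frmd4b (0.888), out of 10489 genes whose mean reached 5 CPM. The likeness rests on few points that share 2 genotypes: the mean z-score was -0.92 in Nsd2f/f replicate 2 and lay from -0.05 to 0.33 in the rest, and Ahr had a Spearman rho of 0.029.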

How the data were processed

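RNA-seq counts of 6 libraries of colon IECs were used, and genotypes and replicate numbers were taken from the sample titles. The values the authors deposited were raw read counts, whole numbers for each Ensembl gene, neither normalised nor filtered. According to the methods they isolated polyA RNA, trimmed reads with Cutadapt and Trimmomatic and aligned them with HISAT2 to GRCm38 (mm10 per the labels). The labels and methods name different library kits, and the counting program and its strand setting are not given in the sources used here. All 6 columns were used. No replicate pair agreed within sampling noise.

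Counts were tested in R 4.3.3 with edgeR 4.0.16 (TMM, filterByExpr, robust quasi-likelihood test, no covariates) and Benjamini-Hochberg adjustment over the 14650 genes tested. The study's methods name an adjusted p below 0.05 and its results a fold change above 1.2 with p below 0.05, so both were counted. Exact two-sided permutation tests of log2(CPM + 1) used the 10 splits of 6 libraries into 3 and 3. The test was checked on simulated data. Further fits used limma 3.58.1 and DESeq2 1.42.0, and figures matplotlib 3.10.9. Coordinates and exon lengths came from GENCODE vM21, which held 99.5% of the gene identifiers, and promoters from RefSeq.

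The members and lists were chosen with earlier results of these data known. Outside the 10 members, the text names Nsd2, the listed genes past the criterion, otherwise the 2 of highest mean CPM in a list, markers at 0, and the 8 genes most like the members. Alox5ap, Il4, Il5, Il13 and Il33 were added after their values were seen, and genes that overlap a member (Tsfm, Tssc4, Gm26542) and genes used as a scale (Epcam, Chga, Xist) are named for reference. For marker lists of other cells, counts of calls or sums are given in place of named genes. A total of 21 alternatives were planned and 1, edgeR's older (legacy) dispersion estimate, was chosen after seeing the data.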

Additional observations from a re-analysis of the deposited data

How the results depend on the processing

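Avil passed the criterion in 20 of 20 alternative analyses, with log2 fold changes between 1.00 and 2.45 and adjusted p between 0.269 and 1.00, whereas Sh2d6 kept its call in 14 of 20 (0.91 to 1.94). Of the members, 2 passed as reported, 5 with limma-voom and quality weights, 4 in the 4 libraries without Xist, 1 with edgeR's legacy dispersion, and 1 to 2 with each library left out in turn. Of the other tuft cell genes, 1 passed as reported (3.29% of all genes) and 2 (Sh2d7 and Ildr1) under library size only (2.61%). With at least 10 counts in each library 0 passed (3.21%), with limma-voom 6 (9.83%) and with Xist presence as a covariate 3 (7.82%). In the 4 libraries without Xist 7 passed (11.0%), and with a library left out 0 to 3 (2.14% to 5.08%). Of the 7 without Xist, Itpr3, Lrmp, Sh2d7, Ildr1 and Espn were higher and Cd24a and Skap2 lower in Nsd2Vil-KO. Alox5ap, called with limma-voom, had a log2 fold change of -1.65 in the main fit. The members with a log2 fold change above 0 were 3 of the 5 that remained with at least 10 counts in each library (5 of 7 as reported, 4 to 6 with a library left out). Their median of 0.82 became 0.56 when scaled to pan-epithelial genes, 1.25 with limma-voom, 0.36 with limma on log2(CPM + 1), 1.08 in the 4 libraries without Xist, and 0.31 to 0.91 with a library left out. The members whose groups did not overlap numbered 1 of 7 as reported (9.92% of all genes), 2 under library size only (9.15%) or pan-epithelial scaling (7.74%), 6 in the 4 libraries without Xist, where 2 libraries face 2 (44.0%), and 1 to 3 with a library left out (15.5% to 29.0%). Of the type 2 circuit, 0 to 1 genes passed with a library left out (Il2rg, without Nsd2Vil-KO replicate 1). Nsd2 was at -1.12 and no longer passed under library size only, and was between -1.42 and -0.87 with a library left out, without a call when Nsd2f/f replicate 1 (-1.04) or 2 (-0.97) was missing. Leaving out a library moved Dclk1 between -0.20 and 0.83, with -0.046 without Nsd2Vil-KO replicate 3, and Alox5 between -0.87 and 0.39, with 0.11 without Nsd2Vil-KO replicate 1. Over all genes the 482 calls became 1440 with limma-voom, 1145 with Xist presence as a covariate, 1646 in the 4 libraries without Xist and 769 without Nsd2Vil-KO replicate 2. The cause of these changes was not tested.

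With replicate number as a block, 1 member (Avil), 0 other tuft cell genes and 303 of all genes passed. The deviations of same-numbered libraries from their group means correlated at 0.32, -0.35 and -0.11, against -0.36 to 0.31 for other pairs. Deviations from a mean over 3 libraries must sum to 0, so this could not settle whether the numbers pair the libraries. Depth limits Il25, Gfi1b and Ltc4s, which had at most 4 counts in any library.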
